A study of Mus musculus with 8 samples.

Results

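The genes described here drive cells from G2 into mitosis and carry mitosis through to cell division, and their transcripts were followed in whole lung of mice that had breathed ozone or filtered air. They came from a list of 46 genes. Every probe set whose array annotation named 1 of them alone was used, with older aliases matched. Of the 46 genes, 39 had such a probe set, 51 probe sets in all, out of 8251 genes measured in this way on the arrays. Ccnb1, Cdc25b, Bub1b, Espl1, Tpx2, Hmmr and Cenpf had no match.

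The 4 groups were C3H/HeJ mice in filtered air, C3H/HeJ mice in ozone, C3H/HeOuJ mice in filtered air and C3H/HeOuJ mice in ozone (C3H-HeJ and C3H-HeOuJ in the labels). C3H/HeJ mice are poor responders to endotoxin because a missense mutation disables their receptor Tlr4, and C3H/HeOuJ mice carry the working receptor. An exposure of 72 h is stated for both C3H/HeOuJ groups and for neither C3H/HeJ group, and no ozone concentration or age of the animals is given. The series title names the hyperpermeability of the airways as its subject. Each group was read on 2 oligonucleotide arrays, named 1a and 1b, and nothing in the labels says that these came from separate animals, so the p-values reflect array-to-array spread alone, and that spread may be technical.

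Entry into mitosis is set off by the kinase Cdk1 with a cyclin partner. Mitotic kinases then build the spindle, a checkpoint holds back anaphase until every chromosome is attached, the anaphase-promoting ubiquitin ligase starts the separation of the sister chromatids, and motor proteins and small GTPase regulators cut the cell into its daughters. Transcripts of these genes build up in cells that divide and are scarce in resting cells, so in a tissue such as the lung, where most cells rest, they are used as markers of proliferation. Their promoters are known for a pair of sequence elements, the CCAAT box, bound by the factor NF-Y, and the cell cycle genes homology region (CHR), through which the DREAM complex holds them down in resting cells.

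Such elements could be read in the reference promoters of the genes measured here. A window from 250 bases before to 50 bases after the transcription start was searched in the RefSeq promoters of mouse build GRCm38.p6 for the CHR letters, TTTGAA or TTCGAA, and for CCAAT, on both strands (TTCAAA and ATTGG on the other strand). No CHR match shared a base with a CCAAT match in the 41 windows of listed genes. Both kinds of letters stood in the window of 28 of the 38 listed genes with a promoter in the table, 73.7%, and in 8.61% of the 27025 genes of the whole table. The CHR letters alone were found in 29 of the 38 listed genes, 76.3%, against 21.7% of all genes, and CCAAT in 32, 84.2%, against 41.1%. At least 2 CCAAT matches were found in 57.9% of the listed genes and in 13.3% of all genes. A match is a description of the letters and not a bound site. Printed here are the 120 bases before the start of 6 genes, with the matched letters in capitals. Cdk1, Cks1b, Cdc20, Top2a and Hmgb2 are shown as genes with both kinds of letters whose ozone arrays lay above their air arrays in both substrains. The same order of arrays held for Birc5 and Cks2, which did not have both kinds of letters and are not printed. Ccnf is shown because it carries the same letters and its mean difference between ozone and air was close to 0. The stretches lie at chr10:69352913-69353032 on the minus strand for Cdk1, chr3:89418292-89418411 on the minus strand for Cks1b, chr4:118437344-118437463 on the minus strand for Cdc20, chr11:99024190-99024309 on the minus strand for Top2a, chr8:57511723-57511842 on the plus strand for Hmgb2 and chr17:24251410-24251529 on the minus strand for Ccnf, and each is written 5′ to 3′ on the strand of its gene.
Cdk1: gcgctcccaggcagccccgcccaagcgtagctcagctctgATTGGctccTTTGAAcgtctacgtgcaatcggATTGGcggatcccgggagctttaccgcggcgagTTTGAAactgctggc
Cks1b: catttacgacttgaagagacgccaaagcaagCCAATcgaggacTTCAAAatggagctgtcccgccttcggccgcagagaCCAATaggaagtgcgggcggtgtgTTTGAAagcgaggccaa
Cdc20: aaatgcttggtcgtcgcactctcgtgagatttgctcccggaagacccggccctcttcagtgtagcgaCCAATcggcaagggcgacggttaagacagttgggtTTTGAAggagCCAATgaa
Top2a: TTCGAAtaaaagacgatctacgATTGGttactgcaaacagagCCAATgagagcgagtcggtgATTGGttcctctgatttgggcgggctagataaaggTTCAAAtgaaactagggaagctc
Hmgb2: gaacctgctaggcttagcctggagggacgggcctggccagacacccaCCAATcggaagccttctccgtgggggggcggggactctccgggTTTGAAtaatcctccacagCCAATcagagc
Ccnf: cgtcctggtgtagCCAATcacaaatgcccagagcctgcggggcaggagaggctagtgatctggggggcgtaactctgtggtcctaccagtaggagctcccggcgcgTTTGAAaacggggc
The CHR letters nearest to the start began 15 bases before it in Cdk1, 17 in Cks1b, 18 in Cdc20, 23 in Top2a, 30 in Hmgb2 and 14 in Ccnf. In all 6 genes a CCAAT match stood farther upstream in the printed stretch, and Cdc20 and Hmgb2 had another between the CHR letters and the start.

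The arrays report 1 intensity per probe set on a linear scale, already brought to a common level by the depositors. A floor was set at 69.6, the 20th percentile of all intensities, and lower values were raised to it before log2 was taken. A probe set above the floor on at least 2 of the 8 arrays was tested, which held for 10953 probe sets and for 38 of the 39 genes. The exception was Tacc3, a spindle protein, which lay at the floor on all 8 arrays. Genes with several probe sets are counted by the brightest one. Differences were tested in limma with all 8 arrays in 1 model, with Benjamini-Hochberg adjustment across every probe set tested. Precision was limited by the number of arrays, since the median standard error (SE) of a difference between 2 groups was 0.30 on the log2 scale. The labelled tissue was checked with 6 measured markers of lung epithelium, and none of them lay at the floor on both arrays of any group. The arrays of a group correlated at a Spearman rho of 0.931 to 0.961 over the 10953 probe sets tested. Both HeOuJ ozone arrays stood apart from the other 6: their 5′ to 3′ signal ratio of the actin control was 0.756 and 0.766, against 0.432 to 0.603 elsewhere, and they lay at 19.3 and 53.2 on the first principal component, against at most 0.54 elsewhere. The fold changes within C3H/HeJ use neither of them, but their SE and p-values rest on a spread shared by all 8 arrays.

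In both substrains the mitotic genes tended to be brighter on the ozone arrays, and no single gene passed the test. In C3H/HeJ, 34 of the 39 genes were higher in ozone than in air, 4 were lower and 1 did not differ, where 46.9% of all genes were higher. In C3H/HeOuJ, 30 were higher and 8 lower, where 49.0% of all genes were higher. A higher value in both substrains was found for 27 of the 39, against 23.1% of all genes. The median log2 fold change of the 39 genes was 0.51 in C3H/HeJ, 0.59 in C3H/HeOuJ and 0.61 for the mean of both substrains, and that of all 8251 genes was 0 in each. None of the 39 genes passed an adjusted p of 0.05 in limma in either substrain or in their mean. The lowest adjusted p in limma was 0.860 in C3H/HeJ, 0.0606 in C3H/HeOuJ and 0.124 for the mean. Among all probe sets tested limma called 0 in C3H/HeJ, which is 0%, 50 in C3H/HeOuJ, which is 0.456%, and 2 for the mean, which is 0.0183%. At an unadjusted p under 0.05 in limma, 12 of the 39 genes were higher in ozone and 0 lower in C3H/HeJ (by this measure 2.27% of all genes were higher and 1.81% lower). In C3H/HeOuJ 16 were higher, against 7.47% of all genes, and 1 was lower, Smc4, against 7.87%. For the mean of both substrains 17 were higher, against 4.24%. The same counts cannot tell more dividing cells from more of these transcripts per cell, since the RNA came from whole lung.

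The separation of the arrays themselves gave a like count. Both ozone arrays lay above both air arrays in C3H/HeJ for 26 of the 39 genes, against 17.1% of all genes. In C3H/HeOuJ this held for 22, against 21.2%, and in both substrains for 16, against 3.62%. The 16 were Cdk1, Ccna2, Ccnb2, Cks1b, Cks2, Cdc20, Aurkb, Birc5, Kif20a, Kif22, Kif23, Prc1, Ect2, Top2a, Smc2 and Hmgb2. Another 10 separated in this direction in C3H/HeJ alone, against 13.5% of all genes, and another 6 in C3H/HeOuJ alone, against 17.6%, a share near that of the 39 genes, and whether the substrains differ there is a matter of the interaction test given further on. Both ozone arrays lay below both air arrays for none of the 39 genes in C3H/HeJ, against 15.8% of all genes, and in C3H/HeOuJ for Cenpa and Smc4, against 18.5%. The median intensity of the 39 genes was 232 and 234 on the HeJ air arrays, 306 and 340 on the HeJ ozone arrays, 282 and 216 on the HeOuJ air arrays and 364 and 363 on the HeOuJ ozone arrays. All 4 ozone arrays were thus above all 4 air arrays in this median.

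Because both HeOuJ ozone arrays stood apart in the actin 5′ to 3′ ratio, the fit was repeated with that ratio as a covariate in limma. In C3H/HeJ 34 of the 39 genes were then higher in ozone, with a median of 0.44, and in C3H/HeOuJ 24 were, with a median of 0.57, and none passed. The covariate follows the groups closely, and the median SE over the 39 genes in C3H/HeOuJ was 0.89 with it and 0.34 without it. The sign turned in C3H/HeOuJ for 8 genes: Cks2 (-0.23), Plk4 (-0.36), Kif11 (-0.63), Kif4 (-0.047), Prc1 (-0.89), Ect2 (-0.29), Cenpe (-0.40) and Smc4 (0.10). It turned in C3H/HeJ for 4: Ccnf (0.14), Aurka (-0.30), Ube2c (0.34) and Kif4 (-0.010). Kif20a was larger in C3H/HeOuJ with the covariate, at 4.05, and Kif22, Top2a and Hmgb2 stood at 1.39, 1.34 and 1.57. Single arrays also weighed on the larger values. Leaving out 1 array in turn gave a C3H/HeJ log2 fold change between 0.99 and 2.11 for Kif20a and between 0.98 and 2.09 for Kif23, and one as low as 0.64 for Cdk1.

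**Figure D1:**
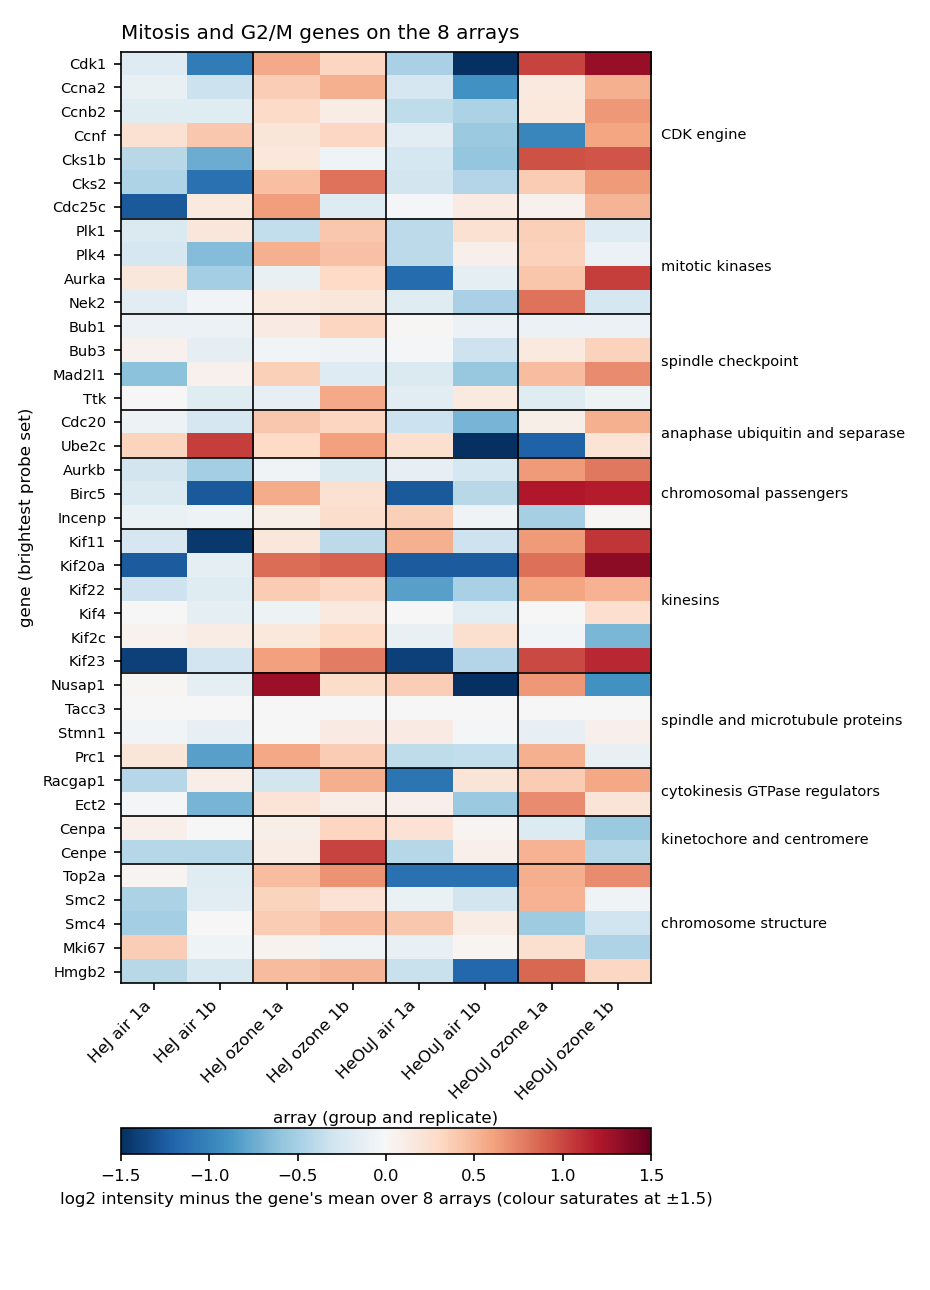
Heat map of the 39 measured mitosis and G2/M genes (rows, brightest probe set, grouped by role) on the 8 arrays (columns), coloured by log2 intensity minus the gene's mean over the arrays, with values below the floor raised to it. The ozone columns are mostly red and the air columns mostly blue. The highest value fell on HeOuJ ozone array 1b for 14 of the 39 genes, against 13.9% of all genes. It fell on HeJ ozone array 1b for 10, against 9.90%, and on HeOuJ ozone array 1a for 7, against 24.5%.

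**Figure D2:**
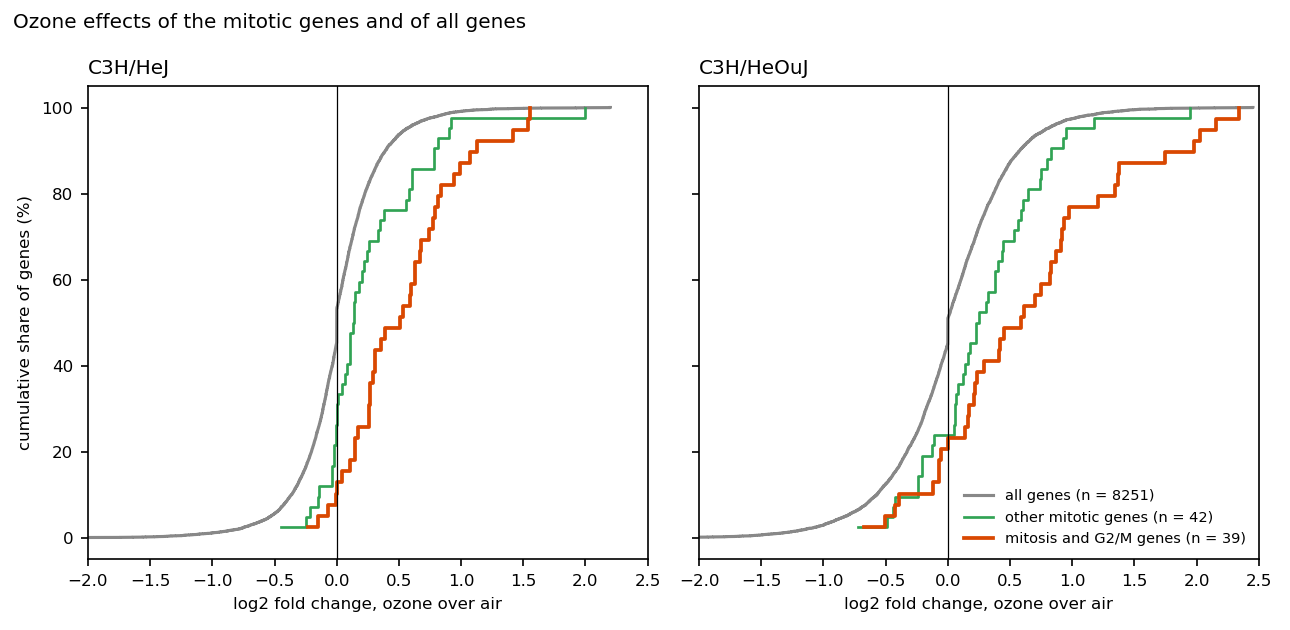
Cumulative share of genes (vertical axis, percent) against log2 fold change of ozone over air in C3H/HeJ (left) and C3H/HeOuJ (right), for the 39 mitosis and G2/M genes, 42 other mitotic genes and all 8251 genes. The curve of the 39 genes is shifted to the right of the curve of all genes, with medians of 0.51 and 0.59 against 0.

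The Cdk1 engine, the kinase with its cyclins, small Cks subunits and activating phosphatase, was measured through 7 genes. All 7 were higher in ozone in C3H/HeOuJ and 6 in C3H/HeJ, and 5 separated in both substrains. Cdk1, the kinase that starts mitosis, read 232 and 128 on the HeJ air arrays, 394 and 332 on the HeJ ozone arrays, 189 and 94.3 on the HeOuJ air arrays, and 537 and 658 on the HeOuJ ozone arrays. Every ozone array was brighter than every air array, of either substrain. The log2 fold change of Cdk1 was 1.07 in C3H/HeJ and 2.16 in C3H/HeOuJ (SE 0.45 each), a 2.10-fold and a 4.45-fold difference, with an adjusted p of 0.0821 in limma for the latter. Cks1b, a small subunit that docks Cdk complexes to their substrates, read 416 and 331 in HeJ air, 620 and 531 in HeJ ozone, 461 and 372 in HeOuJ air, and 1073 and 1067 in HeOuJ ozone. Its air arrays overlapped between the substrains, and its HeOuJ ozone arrays stood clear above all others. The log2 fold change of Cks1b was 0.63 in C3H/HeJ and 1.37 in C3H/HeOuJ (SE 0.24 each), and its adjusted p of 0.0606 in limma was the lowest of the 39 genes in C3H/HeOuJ. With the actin covariate Cdk1 was at 0.59 and 1.12 and Cks1b at 0.46 and 1.01 in the same order.

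Its paralog Cks2 read 148 and 93.7 in HeJ air, 278 and 356 in HeJ ozone, 168 and 150 in HeOuJ air, and 265 and 317 in HeOuJ ozone. Here the ozone arrays of the substrains overlapped, with a log2 fold change of 1.42 in C3H/HeJ and 0.87 in C3H/HeOuJ (SE 0.38 each), which turned to -0.23 in C3H/HeOuJ with the covariate. The 0.860 given above as the lowest adjusted p in limma in C3H/HeJ was that of Cks2. Ccnb2, a B-type cyclin that activates Cdk1, read 1086 and 1089 in HeJ air, 1512 and 1339 in HeJ ozone, 952 and 888 in HeOuJ air, and 1383 and 1936 in HeOuJ ozone. The groups did not overlap in either substrain, though the mean log2 fold change was only 0.61 (SE 0.13). Ccna2, the A-type cyclin of S and G2 phase, had a mean log2 fold change of 0.80 (SE 0.19), with air arrays at 376 to 651 and ozone arrays at 780 to 1020. Cdc25c, a phosphatase that removes the inhibitory phosphates of Cdk1, overlapped in both substrains, with a mean log2 fold change of 0.51 (SE 0.37). Ccnf, an F-box protein that bears a cyclin fold and does not activate a Cdk, read 393 and 443 in HeJ air, 381 and 415 in HeJ ozone, 300 and 228 in HeOuJ air, and 170 and 508 in HeOuJ ozone. Its groups overlapped in both substrains, and the 95% interval of its mean log2 fold change, -0.74 to 0.84, is wide.

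**Figure D3:**
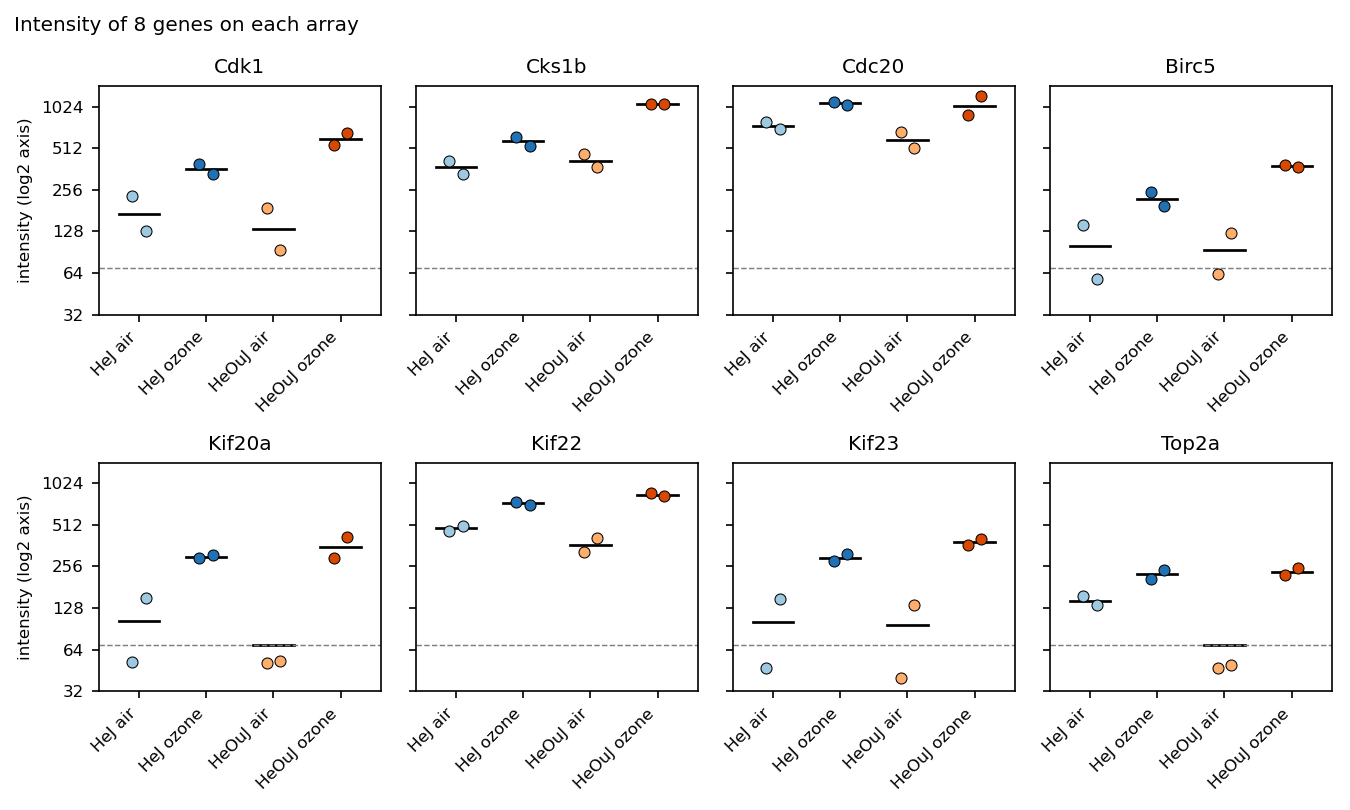
Intensity (vertical axis, log2 scale, common to all panels) of Cdk1, Cks1b, Cdc20, Birc5, Kif20a, Kif22, Kif23 and Top2a on each array (points), by group, with the group mean of the log2 values (bar, values below the floor raised to it) and the floor of 69.6 (dashed line). In every panel both ozone points of a substrain lie above both of its air points.

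Plk1, Plk4, Aurka and Nek2, the kinases grouped here, were all higher in ozone in both substrains by their brightest probe sets. The differences were smaller than those of Cdk1, down to 0.04 (SE 0.34) for Plk1 in C3H/HeJ. Bub1 and Ttk, kinases placed under the checkpoint below, were lower in C3H/HeOuJ, at -0.05 (SE 0.24) and -0.12 (SE 0.31). Plk4, which licenses the duplication of centrioles, read 324 and 245 in HeJ air, 560 and 525 in HeJ ozone, 293 and 406 in HeOuJ air, and 489 and 363 in HeOuJ ozone. Its arrays separated in C3H/HeJ and overlapped in C3H/HeOuJ, with log2 fold changes of 0.94 and 0.29 (SE 0.32 each). Aurka, the Aurora kinase of the spindle poles, showed the reverse: 175 and 109 in HeJ air and 143 and 190 in HeJ ozone overlapped, and 65.6 and 140 in HeOuJ air lay below 206 and 317 in HeOuJ ozone. The log2 fold change of Aurka was 0.26 in C3H/HeJ and 1.37 in C3H/HeOuJ (SE 0.47 each). Nek2, a kinase that helps to part the centrosomes, had a mean log2 fold change of 0.43 (SE 0.24) and reached 978 on HeOuJ ozone array 1a against 464 on array 1b.

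The spindle checkpoint, which delays anaphase until all kinetochores are attached, had the lowest median of the mean ozone effect among the roles, 0.17. The median over its 4 measured genes was 0.31 in C3H/HeJ and 0.18 in C3H/HeOuJ on the log2 scale. Mad2l1, the checkpoint protein that binds and restrains Cdc20, read 248 and 396 in HeJ air, 487 and 332 in HeJ ozone, 325 and 256 in HeOuJ air, and 523 and 618 in HeOuJ ozone, so that only the HeOuJ arrays separated. Bub3, a checkpoint and kinetochore protein, lay between 2168 and 2826 on the 6 arrays other than HeOuJ ozone and at 2978 and 3422 on those. The kinases Bub1 and Ttk were close to the floor, with Bub1 at 8.09 to 92.5 and Ttk at 22.7 to 117 over the 8 arrays, and their mean log2 fold changes were 0.13 (SE 0.17) and 0.09 (SE 0.22). The floor compresses changes within a substrain in these dim genes, and their means depend on it. With the floor at the 10th percentile Bub1 was at 0.55 in C3H/HeJ and -0.50 in C3H/HeOuJ. The mean of Ttk was then -0.031.

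The target of that checkpoint, Cdc20, had a mean log2 fold change of 0.68 (SE 0.16), close to that of Mad2l1, 0.67 (SE 0.25). Cdc20, the activator of the anaphase-promoting complex, read 791 and 700 in HeJ air, 1108 and 1047 in HeJ ozone, 669 and 517 in HeOuJ air, and 892 and 1214 in HeOuJ ozone. Its ozone arrays all exceeded its air arrays, and the log2 fold change was 0.53 in C3H/HeJ and 0.82 in C3H/HeOuJ (SE 0.22 each). Ube2c, the ubiquitin-conjugating enzyme of the same complex, was scattered, from 82.8 to 490 over the air arrays and from 103 to 364 over the ozone arrays. Its mean log2 fold change was -0.05 (SE 0.47).

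The chromosomal passenger complex corrects faulty attachments and acts again in cytokinesis. Birc5, or survivin, which brings the complex to the centromere, read 143 and 58.3 in HeJ air, 245 and 195 in HeJ ozone, 63.3 and 126 in HeOuJ air, and 385 and 376 in HeOuJ ozone. The 4 air arrays of Birc5 overlapped between the substrains and all lay below the ozone arrays. In each substrain 1 of these air arrays lay below the floor. The log2 fold change of Birc5 was 1.13 in C3H/HeJ and 2.03 in C3H/HeOuJ (SE 0.47 each), with an adjusted p of 0.0994 in limma in C3H/HeOuJ. With the actin covariate these values were 0.45 and 0.57, and without HeJ air array 1b the first was 0.61. Aurkb, the kinase of the complex, read 95.6 and 81.3, 112 and 100, 107 and 96.5, and 181 and 200 in the same order of groups. It separated in both substrains, with a mean log2 fold change of 0.59 (SE 0.21). Incenp, the scaffold of the complex, read 267 and 272 in HeJ air, 305 and 345 in HeJ ozone, 366 and 277 in HeOuJ air, and 204 and 290 in HeOuJ ozone. It was thus higher in ozone in C3H/HeJ and overlapped in C3H/HeOuJ, with log2 fold changes of 0.27 and -0.39 (SE 0.34 each).

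The kinesins, the motor proteins of the spindle, held the 2 largest mean differences of the list, those of Kif20a and Kif23. Kif20a, which carries cargo to the cleavage furrow, read 51.8 and 151 in HeJ air, 296 and 307 in HeJ ozone, 51.3 and 52.6 in HeOuJ air, and 295 and 420 in HeOuJ ozone. Both HeOuJ air arrays lay below the floor, so the difference there was at least 5.06-fold, and it was 2.94-fold in C3H/HeJ. The mean log2 fold change of Kif20a was 1.95 (SE 0.31, adjusted p 0.124 in limma), the largest of the 39 genes. Kif23, the motor of the centralspindlin complex of the midzone, read 47.1 and 150 in HeJ air, 281 and 312 in HeJ ozone, 39.6 and 135 in HeOuJ air, and 364 and 403 in HeOuJ ozone. In each substrain 1 air array of Kif23 lay below the floor, and the ozone arrays lay close together. The log2 fold change of Kif23 was 1.54 in C3H/HeJ and 1.98 in C3H/HeOuJ (SE 0.48 each). Kif22, which pushes chromosome arms towards the spindle equator, read 463 and 504 in HeJ air, 749 and 709 in HeJ ozone, 325 and 409 in HeOuJ air, and 860 and 821 in HeOuJ ozone. With little spread within any group, its log2 fold changes of 0.59 and 1.20 (SE 0.22 each) had an adjusted p in limma of 0.0646 in C3H/HeOuJ. Kif11, the motor that drives the spindle poles apart, separated in C3H/HeOuJ alone, where air gave 275 and 153 and ozone 296 and 400. In C3H/HeJ air gave 159 and 35.2, the latter below the floor, and ozone 213 and 145. The log2 fold change of Kif11 was nonetheless 0.74 in C3H/HeJ and 0.75 in C3H/HeOuJ (SE 0.51 each). Kif4, a motor of chromosome arms, spanned 189 to 253 and Kif2c, which takes microtubules apart at the centromere, 101 to 201 over all 8 arrays. Their mean log2 fold changes were 0.16 (SE 0.24) and -0.14 (SE 0.26).

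Among the proteins that bundle and regulate spindle microtubules, Prc1, which crosslinks the midzone, read 444 and 222 in HeJ air, 583 and 508 in HeJ ozone, 300 and 304 in HeOuJ air, and 566 and 363 in HeOuJ ozone. It separated in both substrains, with a mean log2 fold change of 0.69 (SE 0.28). Stmn1, or stathmin, which binds free tubulin and is also made by cells that do not divide, read 3850 and 3645 in HeJ air, 3964 and 4334 in HeJ ozone, 4332 and 3912 in HeOuJ air, and 3658 and 4192 in HeOuJ ozone. The 95% interval of its mean log2 fold change was -0.17 to 0.25, the narrowest interval among the 38 genes tested. Nusap1, a spindle-assembly protein, varied so much within groups, with 333 and 89.5 in HeOuJ air, that its mean log2 fold change of 0.65 had an SE of 0.51. Ect2, the exchange factor that switches on RhoA at the furrow, separated in both substrains, with air arrays at 100 to 172 and ozone arrays at 174 to 266. Its partner Racgap1 separated in C3H/HeOuJ alone, where air gave 126 and 309 and ozone 350 and 404. The mean log2 fold change of Ect2 was 0.60 (SE 0.29) and that of Racgap1 0.61 (SE 0.36).

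The genes of chromosome structure split. Top2a, the topoisomerase that untangles sister chromatids, read 156 and 134 in HeJ air, 208 and 242 in HeJ ozone, 46.8 and 49.4 in HeOuJ air, and 221 and 248 in HeOuJ ozone. The ozone levels of Top2a overlapped between the substrains, and only the HeOuJ air arrays lay below the floor. Its difference in C3H/HeOuJ was at least 3.36-fold (adjusted p 0.0657 in limma), and it was 1.55-fold in C3H/HeJ. Hmgb2, a chromatin protein of dividing cells, read 157 and 178 in HeJ air, 290 and 298 in HeJ ozone, 166 and 92.8 in HeOuJ air, and 382 and 260 in HeOuJ ozone, with a mean log2 fold change of 1.08 (SE 0.29). The condensin subunit Smc2 separated in both substrains, from 219 to 284 on the air arrays and from 293 to 436 on the ozone arrays, with a mean log2 fold change of 0.51 (SE 0.24).

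Smc4, which pairs with Smc2 in condensin, did not follow it. Smc4 read 697 and 994 in HeJ air, 1292 and 1373 in HeJ ozone, 1313 and 1070 in HeOuJ air, and 687 and 806 in HeOuJ ozone. Ozone arrays were the brighter ones in C3H/HeJ and the dimmer ones in C3H/HeOuJ, without overlap in either. The log2 fold change of Smc4 was 0.68 in C3H/HeJ and -0.67 in C3H/HeOuJ (SE 0.21 each). With the actin covariate they were 1.04 and 0.10, so the opposite direction in C3H/HeOuJ depended on that setting. The difference of these effects was -1.35 (SE 0.30, 95% interval -2.04 to -0.66), with an unadjusted p of 0.0018 and an adjusted p of 0.184 in limma. Cenpa, the histone variant that marks the centromere, had the same order at a smaller size: 431 and 412 in HeJ air, 437 and 514 in HeJ ozone, 476 and 420 in HeOuJ air, and 356 and 279 in HeOuJ ozone. The difference of the ozone effects on Cenpa was -0.67 (SE 0.39, adjusted p 0.568 in limma). Cenpe, the kinetochore motor, lay at the floor on both HeJ air arrays and at 102 and 189 on the HeJ ozone arrays, a difference of at least 1.99-fold, and it overlapped in C3H/HeOuJ.

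The ozone effect was compared between the substrains by the interaction term, the log2 fold change in C3H/HeOuJ minus that in C3H/HeJ. It was above 0 for 24 of the 39 genes and below 0 for 14, with a median of 0.19. Of all 8251 genes, 4123 lay above 0 and 3753 below. A value above 0 can also stand for a smaller fall, as for Mki67, at -0.15 in C3H/HeJ and -0.07 in C3H/HeOuJ. None of the 39 and none of all probe sets (0%) were called in limma. At an unadjusted p under 0.05 in limma 1 of the 39 lay above 0, Top2a, against 4.96% of all genes. Below 0 it was 1, Smc4, against 6.23%. For Cdk1 the difference of the effects was 1.08, with a 95% interval of -0.38 to 2.55. For Cks1b it was 0.74 (-0.04 to 1.52), for Kif22 0.61 (-0.11 to 1.33) and for Birc5 0.90 (-0.60 to 2.40). These intervals include 0 and also differences of more than 2-fold. Compared directly, the substrains differed in air by a median of -0.06 over the 39 genes, C3H/HeOuJ over C3H/HeJ, and in ozone by 0.06, which turned to -0.31 with the actin covariate. None of the 39 genes passed in limma in air, where 0.0456% of all probe sets did, or in ozone, where 0.977% did. At an unadjusted p under 0.05, 1 of the 39 was higher and 1 lower in C3H/HeOuJ in air, against 2.82% and 2.59% of all genes. In ozone 2 were higher and 1 lower, against 8.30% and 9.07%. In air the lowest adjusted p in limma was 0.722, for Top2a, with a log2 difference of -1.06 against HeOuJ arrays at the floor. In ozone it was 0.0997, for Smc4, at -0.84, and next came Cks1b, higher in C3H/HeOuJ by 0.90 (adjusted p 0.112 in limma).

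**Figure D4:**
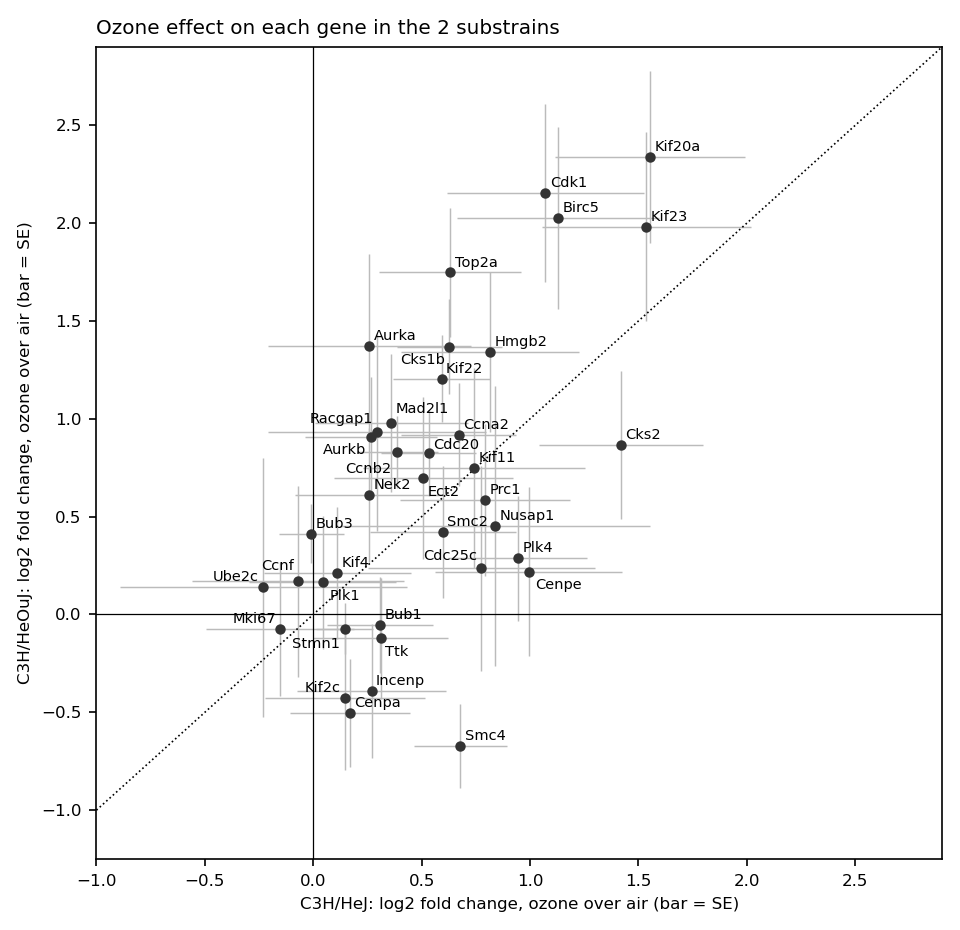
Log2 fold change of ozone over air in C3H/HeOuJ (vertical axis) against that in C3H/HeJ (horizontal axis) for the 38 tested mitosis and G2/M genes. Each fold change (points) was computed from the 4 arrays of its substrain. The SE (bars) rests on a spread shared by all arrays of the model, so it is the same in both substrains for a gene. The dotted line marks equal effects. Of the genes, 27 lie above 0 on both axes, and Smc4 lies lowest, at 0.68 and -0.67.

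The probe sets of a gene did not always give the same value, with the widest gaps in Kif20a, Nusap1, Mki67 and Plk1. Of the 39 genes, 10 had more than 1 probe set. Plk1, the kinase that acts from mitotic entry to cytokinesis, had 3. Its brightest, 161292_f_at, had a mean log2 fold change of 0.10 (SE 0.24). The set 101350_g_at read 130 and 381 in HeJ air, 444 and 426 in HeJ ozone, 408 and 285 in HeOuJ air, and 698 and 618 in HeOuJ ozone, separated in both substrains, with a mean of 0.96 (SE 0.34). The set 93099_f_at lay below the floor on both HeOuJ air arrays and at 219 on both HeOuJ ozone arrays, at least 3.15-fold higher there, and differed by 0.15 (SE 0.34) in C3H/HeJ. Mki67 encodes Ki-67, the coat protein of mitotic chromosomes and the usual marker of dividing cells. Its brightest set, 161931_r_at, had a mean log2 fold change of -0.11 (SE 0.24). Its other set, 99457_at, read 226 and 144 in HeJ air, 265 and 247 in HeJ ozone, 115 and 128 in HeOuJ air, and 277 and 239 in HeOuJ ozone, without overlap in either substrain, and had a mean of 0.79 (SE 0.26). The second set of Kif20a, 160501_at, lay at 13.8 to 126 and gave 0.10 (SE 0.28), against 1.95 for the brightest set. That of Nusap1, 102115_r_at, pointed the other way from its brightest set, at -0.37 (SE 0.39) against 0.65. The second sets of 3 more genes also differed in sign from the brightest. They gave 0.13 (SE 0.36) against -0.06 for Incenp, -0.05 (SE 0.21) against 0.51 for Cdc25c and -0.03 (SE 0.31) against 0.20 for Bub3. The suffix letters f, g, i, r and s mark probe sets chosen under relaxed rules or with probes that may match other sequences, and the brightest sets of Cdc25c, Plk1, Ube2c, Kif20a, Kif22, Nusap1, Mki67 and Hmgb2 are of these kinds.

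**Figure D5:**
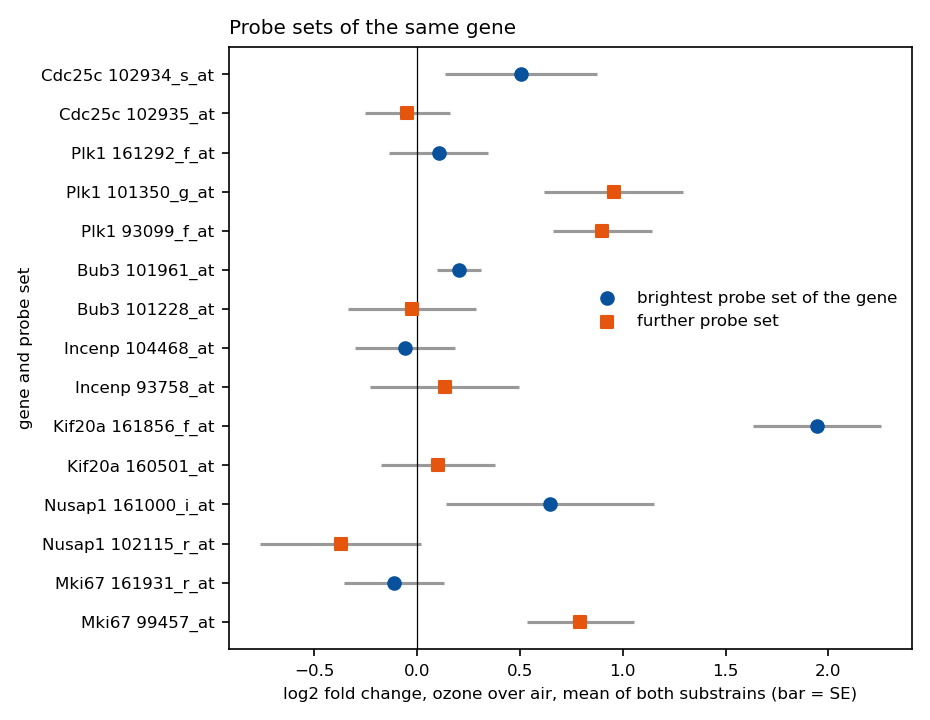
Mean log2 fold change of ozone over air over both substrains (horizontal axis, with SE bars) for the tested probe sets of the genes with several tested ones, the brightest set of each gene as a circle and further sets as squares. The SE bars of the lowest and highest set do not meet in Plk1 (0.10 to 0.96), Kif20a (0.10 and 1.95), Nusap1 (-0.37 and 0.65) and Mki67 (-0.11 and 0.79).

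Other genes of mitosis, 65 in a wider list of which 42 were measured, were shifted less. In C3H/HeJ 29 of the 42 were higher in ozone and 11 lower, the median being 0.13 on the log2 scale, and in C3H/HeOuJ 32 were higher and 10 lower, with a median of 0.24. None passed in limma in either substrain or in the mean, where 6 were higher and 2 lower at an unadjusted p under 0.05, against 4.24% and 4.42% of all genes. Ranbp1, which regulates the GTPase Ran, had the lowest p for the mean, with 653 and 773 in HeJ air, 1016 and 1082 in HeJ ozone, 675 and 932 in HeOuJ air, and 1580 and 1441 in HeOuJ ozone and a mean log2 fold change of 0.74 (SE 0.14, adjusted p 0.227 in limma). Next came Ckap2, a microtubule-associated protein, at 1.47 (SE 0.32), Anln, or anillin, which organises the contractile ring, at 0.89 (SE 0.22), and Gtse1, a microtubule-binding protein of G2 phase, at 1.37 (SE 0.40). Foxm1, a transcription factor of many G2/M genes, differed by 0.33 in C3H/HeJ and -0.24 in C3H/HeOuJ (SE 0.21 each). The inhibitors that restrain the cell cycle, the CDK inhibitors and the RB family with their relatives, had 9 of 16 measured genes higher and 7 lower in the mean, with a median of 0.10. None of them passed in limma. At an unadjusted p under 0.05 in limma 0 were higher in the mean and 1 lower, Cdkn1a, against 4.24% and 4.42% of all genes. In C3H/HeOuJ 3 were higher and 0 lower by this measure, against 7.47% and 7.87%. Cdkn1a, the p21 inhibitor that p53 induces, read 629 and 860 in HeJ air, 519 and 607 in HeJ ozone, 712 and 908 in HeOuJ air, and 608 and 627 in HeOuJ ozone. Its ozone arrays lay below its air arrays in both substrains, with a mean log2 fold change of -0.38 (SE 0.17, adjusted p 0.537 in limma).

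The ozone effect was also set against the letters in the promoters. Among the 32 measured genes with a promoter in the table, 23 held both CHR letters and CCAAT, and 11 of these 23 separated in both substrains. Of the 9 without both kinds of letters, Cks2, Plk4, Nek2, Mad2l1, Birc5, Kif2c, Nusap1, Tacc3 and Cenpe, 2 did so, Cks2 and Birc5. The median of the mean log2 fold change was 0.61 in the 23 genes, from -0.17 to 1.76, and 0.62 in the 9, from -0.14 to 1.58.

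Marker genes of other cells moved with some of the same arrays. The summed intensity of 8 measured erythroid genes, of a lineage that divides as it matures, was 40708 to 53584 in HeJ air, 50652 to 53599 in HeJ ozone, 45241 to 49992 in HeOuJ air and 60639 to 83004 in HeOuJ ozone, with Epb42 at the floor on both HeOuJ air arrays. Most of the sum in HeOuJ ozone was Hba-a1, the alpha globin gene, at 68779 and 44782. Of the 8 genes 4 were higher and 4 lower in ozone in C3H/HeOuJ, their median on the log2 scale being 0.02, and Gata1, an erythroid transcription factor, stood at -1.67 (SE 0.41). The sum of 8 B and plasma cell genes was 12671 to 13295 in HeJ air and 7795 to 8181 in HeJ ozone, and 7339 to 7642 in HeOuJ air and 8240 to 9834 in HeOuJ ozone. The sum of 10 neutrophil genes was 7544 to 7826, 7447 to 8468, 7630 to 8453 and 6084 to 8090 in the same order of groups, with Cxcr2 at the floor on both HeJ ozone arrays. That of 12 macrophage genes was 39518 to 45211, 35193 to 40510, 42152 to 51095 and 51208 to 57531, with Marco at the floor in all 4 groups. Lyz2, a lysozyme gene, made up the largest share of that sum. In C3H/HeOuJ 6 of the 12 macrophage genes were higher in ozone and 5 lower. Only Chil3, a chitinase-like protein, was called there, at -1.19 (adjusted p 0.046 in limma), against 0.456% of all probe sets. Between the substrains in ozone 7 were higher in C3H/HeOuJ and 4 lower, and 1 was called (adjusted p 0.033 in limma), against 0.977%. The sum of 6 lung epithelial genes was 172888 to 213103, 155334 to 186940, 151765 to 191193 and 237721 to 246088, highest in HeOuJ ozone. That of 10 striated muscle genes was 26720 to 29604, 22357 to 22862, 25591 to 27129 and 28710 to 29970, with Myl2 at the floor in HeJ ozone and both HeOuJ groups. Of the 10 genes, 8 had both HeJ ozone arrays below both HeJ air arrays, against 15.8% of all genes. For 13 T and NK cell genes the sum was 2333 to 2792, 2055 to 2663, 2565 to 2711 and 2435 to 2646, with Cd8b1 at the floor in all 4 groups. The part of these cells in the differences of the mitotic genes was not tested.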

How the data were processed

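Lung RNA of 4 groups, 2 arrays each, was measured on Affymetrix mouse arrays. The deposited intensity is linear, 1 value for each probe set of an array. Its 2% trimmed mean was 800.39 to 800.41 on each array, so the values had been scaled, with software not given in the sources used here. The 66 control probe sets among 12488 were left out. From the other 12422, a floor at the 20th percentile (69.63, or 6.12 on the log2 scale) and a filter of at least 2 of 8 arrays above it left 10953, and 1469 were too dim. The array annotation, with symbols updated to RefSeq, gave a single gene for 10833 probe sets, while 396 had several genes and 1193 had none. All 8 arrays entered limma 3.58.1 under R 4.3.3 (4 group means, eBayes with an intensity trend, 4 residual and 4.54 prior degrees of freedom). A fold change is ozone over air or C3H/HeOuJ over C3H/HeJ, and a value against a group at the floor on both arrays is a lower bound. Promoters were searched with Python 3.11.15 and pandas 2.3.3, and figures drawn with matplotlib 3.10.9.

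The genes and lists were chosen with earlier results of these data known. The rule for named genes took the 3 of lowest p for the mean ozone effect in each role, and any gene whose probe sets differed in sign, 29 in all; the other measured genes were described after their values were seen. The fit was checked on simulated data. The main fit did not pair arrays by the letters 1a and 1b. Their differences correlated between groups at -0.01 to 0.14, which cannot exclude a shared effect of the letters. On the first principal component array 1b lay below array 1a in every group. Alternatives covered normalisation, floor, filter, variance model, probe set per gene, replicate letters, the actin covariate, the arrays in the fit and leaving out each array.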

Additional observations from a re-analysis of the deposited data

Results flagged for a closer look

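Smc4 and Cenpa drew attention because their ozone arrays lay above the air arrays in C3H/HeJ and below them in C3H/HeOuJ. Of all 8251 genes, 644 showed arrays that separated in opposite directions in this way or the reverse. The ozone effect in C3H/HeOuJ minus that in C3H/HeJ was -1.35 for Smc4 and -0.67 for Cenpa on the log2 scale, and neither passed in limma (adjusted p 0.184 and 0.568). Without any 1 of the 8 arrays the value stayed between -1.61 and -1.09 for Smc4 and between -0.85 and -0.50 for Cenpa. With the actin covariate the difference was -0.94 for Smc4 and -0.81 for Cenpa, but the ozone effect on Smc4 in C3H/HeOuJ turned from -0.67 to 0.10 and its substrain difference in ozone from -0.84 to 0.42. The cause was not tested. Groups of 2 arrays are too small for an outlier test.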

How the results depend on the processing

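No mitotic gene was called for the ozone effect in C3H/HeJ under its 19 alternatives, or for the mean effect, the interaction or either substrain difference under their 18. In C3H/HeOuJ, 4 settings gave calls in limma: 1 gene with the floor at the 10th percentile (Cks1b, adjusted p 0.0486), 4 with it at the 30th (Cks1b, Cdk1, Birc5 and Kif23, 0.0386 to 0.0490), 1 with no filter (Top2a, 0.0364) and 3 with at least 6 of 8 arrays above the floor (Cks1b, Cdk1 and Kif22, 0.0336 to 0.0471). The probe sets called in C3H/HeOuJ, 50 in all, ranged from 0 to 120 (0 to 22 without any 1 array), and those in the substrain difference in ozone, 107, from 0 to 242. For C3H/HeJ, 0, they ranged from 0 to 8, for the mean effect from 0 to 14, for the interaction from 0 to 10 and for the substrain difference in air from 0 to 11. The median of the mitotic genes was 0.30 in C3H/HeJ with the floor at the 30th percentile. With the actin covariate it was 0.42 for the mean effect and -0.31 for the substrain difference in ozone. Leaving out 1 array moved it from 0.47 to 0.77 in C3H/HeOuJ, and from 0.020 to 0.43 for the interaction; these ends came without HeOuJ air 1b and 1a. Replicate letters as a block changed no call of a mitotic gene, and moved the probe sets called from 107 to 185 for the substrain difference in ozone and from 2 to 0 for the mean effect. The sign of the mean effect turned for Incenp (0.04) and Mki67 (0.34) when probe sets were averaged. It turned with the covariate for Aurka (-0.065), Ube2c (0.86), Prc1 (-0.39), Stmn1 (-0.067), Ect2 (-0.12), Kif11 (-0.26), Ttk (-0.37) and Kif4 (-0.028). It also turned for Ttk with the floor at the 10th percentile (-0.031), for Ccnf under quantile normalisation (-0.0093), and for Smc4, near 0, under quantile normalisation (-0.0087) and median centring (-0.016). Without 1 array it ranged from -0.49 to 0.40 for Ube2c, -0.19 to 0.067 for Incenp, -0.012 to 0.086 for Stmn1, -0.29 to 0.062 for Mki67, -0.35 to 0.44 for Ccnf, -0.30 to 0.021 for Kif2c, -0.088 to 0.30 for Plk1, -0.077 to 0.27 for Ttk and -0.13 to 0.13 for Smc4. The cause was not tested. Over 5 settings the genes separate in ozone numbered 23 to 26 in C3H/HeJ, 21 to 23 in C3H/HeOuJ and 15 to 17 in both. Signal near the floor limits Bub1, Ttk, Tacc3, Cenpe and the air values of Kif20a, Kif23, Birc5 and Top2a. It also limits 1 air array each of Aurka (HeOuJ) and Kif11 (HeJ).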
